A study of Mus musculus with 7 samples.

Results

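The 6 miRNAs described here are mmu-miR-6540-5p, both arms of the miR-3085 hairpin (mmu-miR-3085-3p and mmu-miR-3085-5p), mmu-miR-3475-3p, mmu-miR-672-5p and mmu-miR-149-5p, written below without the mouse prefix mmu. They are 6 of the 1908 mature miRNAs listed in each of the 2 expression tables. They were chosen by name because both E10.5 motoneuron libraries lay above both E10.5 GFP-negative libraries, so their E10.5 difference is a description and carries no test. Their levels at E12.5 played no part in that choice.

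Small RNAs were sequenced from fluorescence-sorted cells of dissociated embryonic mouse spinal cord. At E10.5, GFP-positive motoneurons (2 libraries) and GFP-negative non-motoneuron cells (2 libraries) came from embryos of the same Hb9::gfp genotype, in which GFP marks cells that use the Hb9 promoter. At E12.5 there was 1 library each of Hb9::gfp GFP-positive motoneurons, of V2a interneurons labelled by tdTomato in Chx10::cre;Rosa26::LSL::tdTomato embryos, and of V3 interneurons labelled by tdTomato in Sim1::cre;Rosa26::LSL::tdTomato embryos. Both Cre lines switch on the reporter permanently, so a cell keeps its label after the driver gene is silenced. The labels do not say how many embryos went into a library, or whether replicates came from separate litters.

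A miRNA gene is transcribed as a hairpin, which is cut to a short duplex. One arm, named 5p or 3p by its side of the hairpin, is usually loaded into an Argonaute protein, and its seed (bases 2 to 8) pairs with target mRNAs. The opposite arm is mostly degraded. A hairpin inside an intron can be made from the transcript of its host gene. Motoneurons at these stages are young neurons that are extending axons towards muscle.

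Sequences are shown because 3 of the members begin with the same bases, which played no part in choosing them. The RefSeq table of mouse GRCm38.p6 held mature entries for 5 of the 6 members, printed here 5′ to 3′ with the seed in capitals.
miR-3085-3p: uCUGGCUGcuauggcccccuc
miR-149-5p: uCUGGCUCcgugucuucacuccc
miR-3475-3p: uCUGGAGGcacaugguuugaa
miR-672-5p: uGAGGUUGguguacuguguguga
miR-3085-5p: aGGUGCCAuuccgagggccaagagu
miR-3085-3p, miR-149-5p and miR-3475-3p all begin with UCUGG, which opens 13 of 1679 mature mouse miRNAs in that table (0.774%). miR-3085-3p and miR-149-5p also share CUGGCU at bases 2 to 7, found there in 5 of 1679 (0.298%). These letters were searched at those positions of the mature strand only, and were chosen after the sequences were seen. The 5 seeds printed here are all different. The seed of miR-3085-3p is also that of miR-3064-5p (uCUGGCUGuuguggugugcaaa), and the seed of miR-672-5p is also that of miR-377-5p (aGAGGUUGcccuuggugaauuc).

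The hairpins are shown to place the arms whose reads are compared. Capitals mark the mature arms that the RefSeq table annotates, which for Mir6540 is the 3p arm.
Mir6540: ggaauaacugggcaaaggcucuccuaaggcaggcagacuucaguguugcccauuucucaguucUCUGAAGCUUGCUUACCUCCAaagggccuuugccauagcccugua
Mir3085: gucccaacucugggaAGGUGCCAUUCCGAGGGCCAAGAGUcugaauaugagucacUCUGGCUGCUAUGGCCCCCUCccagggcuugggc
Mir3475: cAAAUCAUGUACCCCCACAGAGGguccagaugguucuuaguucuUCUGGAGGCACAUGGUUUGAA
Mir672: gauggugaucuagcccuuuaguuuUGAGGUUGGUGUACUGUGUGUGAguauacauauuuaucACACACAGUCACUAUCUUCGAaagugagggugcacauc
Mir149: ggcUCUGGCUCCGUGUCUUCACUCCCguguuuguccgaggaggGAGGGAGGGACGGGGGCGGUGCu
By the GENCODE M21 annotation of GRCm38, 3 of the hairpins are intronic. Mir6540 (chr16:42303362-42303469, minus strand) is in Gap43, whose protein is abundant in growth cones. Mir672 (chrX:104116175-104116274, minus strand) is in Nexmif, an X-linked gene involved in neurite extension. Mir149 (chr1:92850378-92850443, plus strand) is in Gpc1, which encodes a cell-surface heparan sulphate proteoglycan. These 3 hairpins have the strand of their host. Mir3085 (chr19:42280082-42280170, minus strand) lies in no annotated protein-coding gene and 2865 bp beyond the end of Crtac1 on the same strand. Mir3475 (chrX:140310948-140311012, plus strand) lies 31251 bp from the nearest protein-coding gene, Frmpd3. None of the 5 hairpins has another annotated hairpin within 10 kb, so no member belongs to a miRNA cluster by that distance.

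Depths recovered from the smallest steps of the values were 493286 to 802619 reads at E10.5 and about 3602919 to 4604737 at E12.5. E10.5 values are reads per 1000000 reads (RPM). E12.5 values are shares of 1000000 after division by length (TPM), and the tables were scaled separately. Intervals given with levels are exact 95% Poisson intervals of the reads and cover counting error only. The marker of the sort, miR-218-5p, stood at 177885 and 200305 RPM in E10.5 motoneurons, against 6623 and 7315 RPM in GFP-negative cells, and at 104198 TPM in E12.5 motoneurons, against 7558 TPM in V2a and 7282 TPM in V3. The E10.5 groups also differed in miRNAs of other cell types. The 10 mesenchymal and smooth muscle markers summed to 1571 and 424 RPM in motoneurons, with miR-145a-3p at 0 in both, and to 81413 and 94290 RPM in GFP-negative cells, where all 10 were detected. The 3 skeletal muscle markers summed to 352 and 129 RPM in motoneurons, against 4173 and 3778 RPM in GFP-negative cells. The 3 sensory neuron markers summed to 1971 and 2325 RPM in motoneurons, against 9171 and 9535 RPM in GFP-negative cells, and the 2 endothelial markers to 508 and 295 RPM in motoneurons, against 977 and 676 RPM in GFP-negative cells. All members of these 3 lists were detected in every E10.5 library. The 3 blood markers were low in all 4 libraries, at 12.46 and 6.08 RPM in motoneurons and 30.9 and 13.0 RPM in GFP-negative cells, with miR-144-3p at 0 in both motoneuron libraries. In these bulk sorts, more cells of a type and more RNA per cell cannot be told apart.

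Of 492 miRNAs abundant enough to test at E10.5 (15.2 RPM or more in at least 2 libraries, about 10 reads in a library of median size), 123 had both motoneuron libraries above both GFP-negative libraries (25.0%). All 6 members passed this filter, and their choice places all 6 among the 123. miR-3085-5p passed only through the motoneuron libraries. Among the members the smallest gap was that of miR-149-5p, whose lowest motoneuron level was 585 RPM and whose highest GFP-negative level was 386 RPM. The first miRNA outside was miR-10a-5p, with 120238 RPM as its lowest motoneuron level and 120645 RPM as its highest GFP-negative level.

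**Figure D1:**
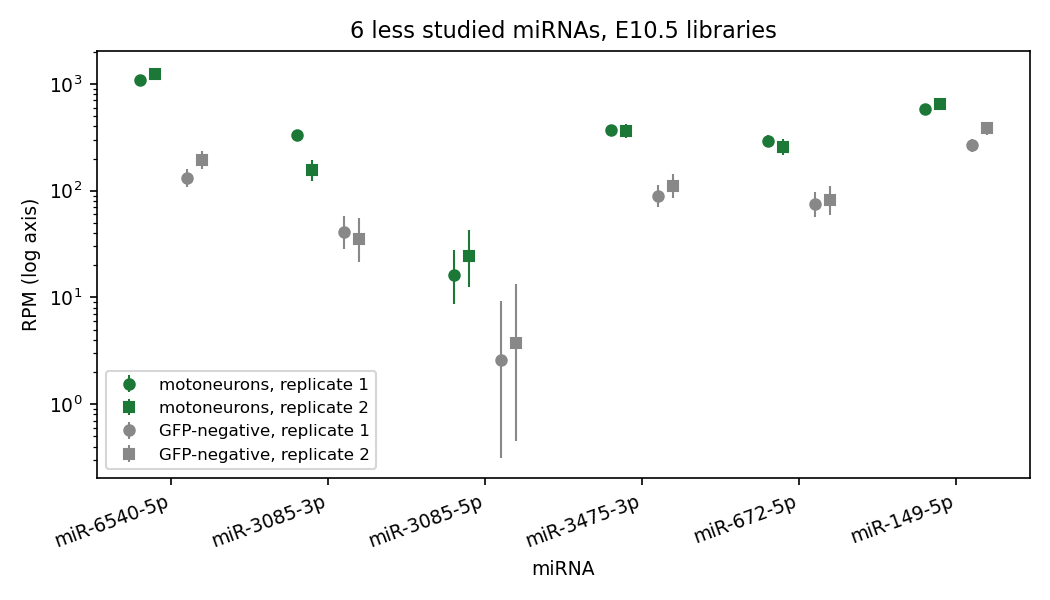
RPM on a log axis of the 6 miRNAs in the E10.5 libraries, motoneurons in green and GFP-negative cells in grey, with circles for replicate 1, squares for replicate 2 and bars for exact 95% Poisson intervals. Every green point lies above every grey point of the same miRNA, by the choice of the members, and the miR-3085-3p motoneuron replicates lie furthest apart, at 331 and 156 RPM.

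miR-6540-5p, from the Gap43 intron, had 1099 and 1243 RPM in motoneurons, against 132 and 195 RPM in GFP-negative cells. The motoneuron libraries lay within 1.13-fold of each other and the GFP-negative ones within 1.47-fold, and the lower motoneuron library was 5.64 times the higher GFP-negative library. Its log2 difference on the log2(RPM + 1) scale was 2.85 (SE 0.25), ranking 3 among the 492 tested miRNAs.

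The opposite arm, miR-6540-3p, was barely detected at E10.5. It had 4.98 and 8.11 RPM in motoneurons and 0 and 7.43 RPM in GFP-negative cells, so the groups overlapped, and it missed the abundance filter. Each value above 0 rests on 4 reads, and 3 reads in the library at 0 would be 3.86 RPM.

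At E12.5 miR-6540-5p stood at 508 TPM in motoneurons (interval 485 to 532), 161 in V2a (150 to 173) and 175 in V3 (163 to 188). Motoneurons thus held 3.15 times the V2a level (interval of the ratio 2.89 to 3.44) and 2.90 times the V3 level (2.66 to 3.17). In TPM the V2a and V3 levels were not distinguishable within counting error, with a ratio of 0.921 (0.830 to 1.023). With scaling by the median of ratios the log2 ratios of motoneurons were 1.90 over V2a and 1.29 over V3, against 1.65 and 1.53 in TPM. The closeness of V2a and V3 therefore depends on the scaling. miR-6540-3p was also highest in motoneurons, at a low level, 10.6 TPM (36 reads) against 2.80 in V2a (12 reads) and 2.27 in V3 (9 reads). Its ratios of 3.80 over V2a (1.93 to 8.01) and 4.68 over V3 (2.21 to 11.1) overlap those of the 5p arm. Both arms from the Gap43 intron were therefore above both interneuron libraries beyond counting error, with 1 library per population and no replicate check.

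miR-3085-3p had 331 and 156 RPM in E10.5 motoneurons, against 41.2 and 35.3 RPM in GFP-negative cells. The motoneuron replicates differed 2.12-fold (interval 1.64 to 2.77), more than counting error allows, but the lower one was still 3.79 times the higher GFP-negative library. The log2 difference was 2.55 (SE 0.41), rank 5 of 492. It was 2.01 without motoneuron replicate 1 and 3.09 without motoneuron replicate 2, so the value of 1 library moved it by more than any other member moved when a library was left out.

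miR-3085-5p had 16.2 and 24.3 RPM in motoneurons (13 and 12 reads), against 2.57 and 3.71 RPM in GFP-negative cells (2 reads each). The groups do not overlap, but the GFP-negative levels are under the level of 3 reads. Its log2 difference was 2.35 (SE 0.48), rank 6 of 492, and 1.62 with a pseudocount of 5 in place of 1. With that pseudocount the log2 difference of the 3p arm was 2.43. Whether the arms of this hairpin differed alike at E10.5 cannot be read at the 5p arm's depth.

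At E12.5 hardly any reads of miR-3085-3p were found, 1 in motoneurons (0.29 TPM), 3 in V2a (0.70 TPM) and 0 in V3, where 3 reads would be 0.76 TPM. No order can be read from these levels, which are all at or below 3 reads. miR-3085-5p stood at 3.79 TPM in motoneurons (15 reads), 1.57 in V2a (8 reads) and 0.85 in V3 (4 reads). From these whole reads, with the level of 1 read taken into account, the ratio was 2.37 for motoneurons over V2a (0.944 to 6.46) and 4.39 for motoneurons over V3 (1.40 to 18.2), so motoneurons lay above V3 beyond counting error and were not distinguishable from V2a at this depth.

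The use of the Mir3085 arms thus stood the other way round in the E12.5 table and the E10.5 table. The 3p arm took 6.25% of the hairpin's reads in E12.5 motoneurons (1 of 16, exact binomial 95% interval 0.158 to 30.2), 27.3% in V2a (3 of 11, 6.02 to 61.0) and 0 of 4 reads in V3 (up to 60.2%). At E10.5 it took 95.3% (266 of 279, 92.2 to 97.5) and 86.5% (77 of 89, 77.6 to 92.8) in motoneurons, against 94.1% (32 of 34, 80.3 to 99.3) and 90.5% (19 of 21, 69.6 to 98.8) in GFP-negative cells. The intervals of the 2 stages did not overlap in any pair of libraries. Within each stage the intervals of all libraries overlapped. Stage and table cannot be told apart here, since each stage was deposited in a table of its own.

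**Figure D2:**
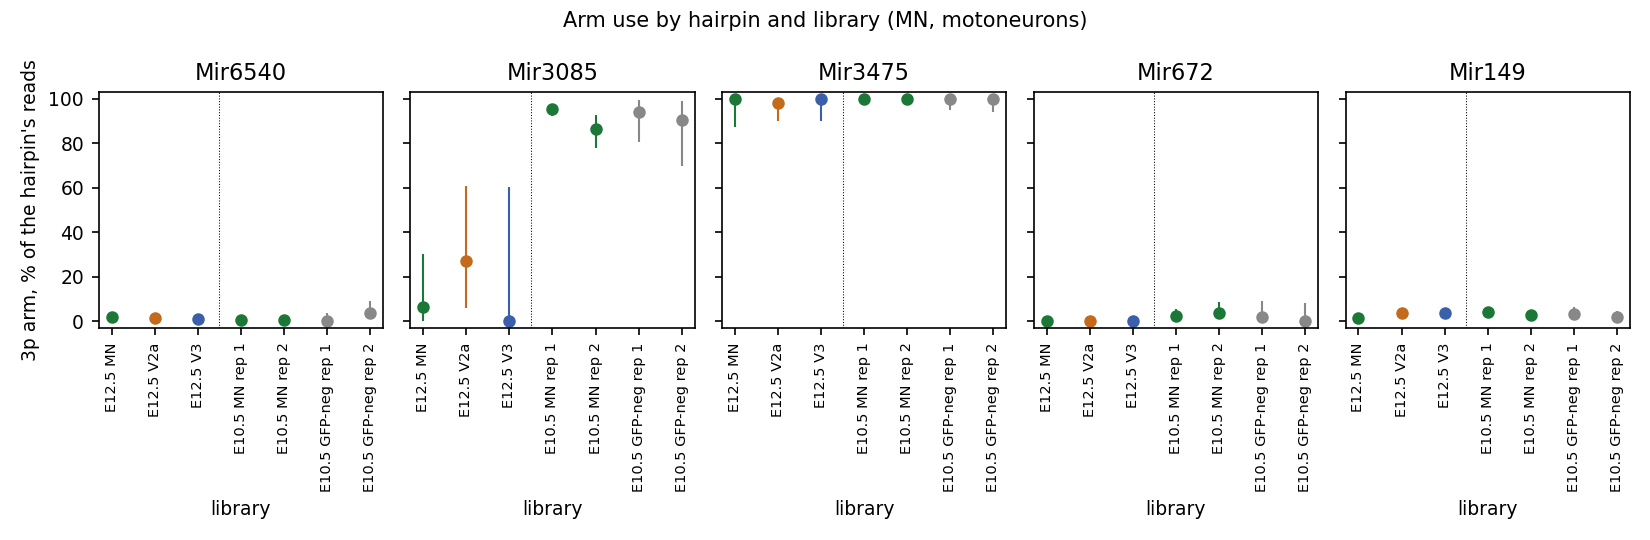
Share of each hairpin's reads that came from the 3p arm, in percent, for the 5 hairpins in all 7 libraries, with exact binomial 95% intervals and a dotted line between the E12.5 libraries on the left and the E10.5 libraries on the right. Mir3085 lies between 0% and 27.3% in the E12.5 libraries and between 86.5% and 95.3% in the E10.5 libraries, whereas Mir6540, Mir3475, Mir672 and Mir149 keep the same leading arm throughout.

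The other hairpins had 1 leading arm in all 7 libraries. The 3p arm held 0% to 3.67% of Mir6540 reads, at least 98.1% of Mir3475 reads, 0% to 3.79% of Mir672 reads and 1.43% to 4.08% of Mir149 reads. miR-3475-5p was listed at 0 in all 4 E10.5 libraries and reached 1 read at E12.5, in V2a.

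miR-3475-3p had 370 and 365 RPM in E10.5 motoneurons, against 90.03 and 111 RPM in GFP-negative cells. Its motoneuron replicates were the closest of any member, and the groups were 3.65-fold apart in their means (log2 difference 1.87, SE 0.25, rank 11 of 492). At E12.5 it stood at only 7.96 TPM in motoneurons (27 reads), 12.1 in V2a (52 reads) and 8.82 in V3 (35 reads). The intervals of all 3 ratios include 1, with 0.657 for motoneurons over V2a (0.397 to 1.07), 0.903 for motoneurons over V3 (0.526 to 1.54) and 1.37 for V2a over V3 (0.879 to 2.17). No difference between the E12.5 populations was detectable at this depth.

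miR-672-5p, from the Nexmif intron, had 292 and 257 RPM in E10.5 motoneurons, against 74.6 and 81.7 RPM in GFP-negative cells. The log2 difference was 1.80 (SE 0.25), rank 12 of 492, and replicates of each group lay within 1.13-fold of each other. The minor arm miR-672-3p had 7.47 and 10.1 RPM in motoneurons (6 and 5 reads), against 1.29 and 0 RPM in GFP-negative cells (1 and 0 reads), and missed the abundance filter.

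At E12.5 miR-672-5p stood at 1631 TPM in motoneurons (1591 to 1673), 2612 in V2a (2566 to 2658) and 1629 in V3 (1591 to 1667). It was the most abundant member in both interneuron libraries, and V2a stood highest. Motoneurons held 0.625 times the V2a level (0.606 to 0.644), and were not distinguishable from V3 within counting error, at 1.002 times its level (0.968 to 1.04). With scaling by the median of ratios the log2 ratios of motoneurons were -0.43 over V2a and -0.24 over V3. V2a then stayed highest by smaller margins, and no direction of motoneurons against V3 is given. miR-672-3p had 2 reads in motoneurons, 4 in V2a and 12 in V3. It was lower in motoneurons than in V3 beyond counting error (ratio 0.195, 0.0212 to 0.876), unlike the 5p arm.

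miR-149-5p, from the Gpc1 intron, had 585 and 649 RPM in E10.5 motoneurons, against 268 and 386 RPM in GFP-negative cells. This was the smallest difference among the members, 1.89-fold between means (log2 difference 0.94, SE 0.24, rank 61 of 492). The GFP-negative replicates differed 1.44-fold, more than counting error allows (0.693, interval 0.569 to 0.844, for replicate 1 over 2). At E12.5 miR-149-5p was the most abundant member in motoneurons, at 2419 TPM (2369 to 2469), against 856 in V2a (829 to 882) and 786 in V3 (760 to 813). Motoneurons held 2.83 times the V2a level (2.72 to 2.94) and 3.08 times the V3 level (2.96 to 3.20).

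The opposite arm, miR-149-3p, did not share that E12.5 pattern. It stood at 36.5 TPM in motoneurons, against 35.0 TPM in V2a and 33.2 TPM in V3, with ratios of 1.04 over V2a (0.819 to 1.32) and 1.10 over V3 (0.861 to 1.41). Its share of the hairpin's reads was 1.43% in motoneurons (1.19 to 1.69), against 3.78% in V2a (3.22 to 4.41) and 3.88% in V3 (3.27 to 4.57), so the arms differed beyond counting error between these libraries. At E10.5 miR-149-3p had 24.9 and 18.2 RPM in motoneurons and 9.0 and 7.43 RPM in GFP-negative cells. It passed the abundance filter only through the motoneuron libraries, and its log2 difference of 1.28 (SE 0.43) did not pass the test (limma adjusted p = 0.0501). The adjusted p was 0.0325 with median-of-ratios scaling, 0.190 with only all-zero rows removed, 0.303 without GFP-negative replicate 1 and 0.305 without GFP-negative replicate 2. In these last fits the lone GFP-negative library was assumed to vary like the motoneuron libraries. It was the only opposite arm or same-seed miRNA abundant enough to test.

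**Figure D3:**
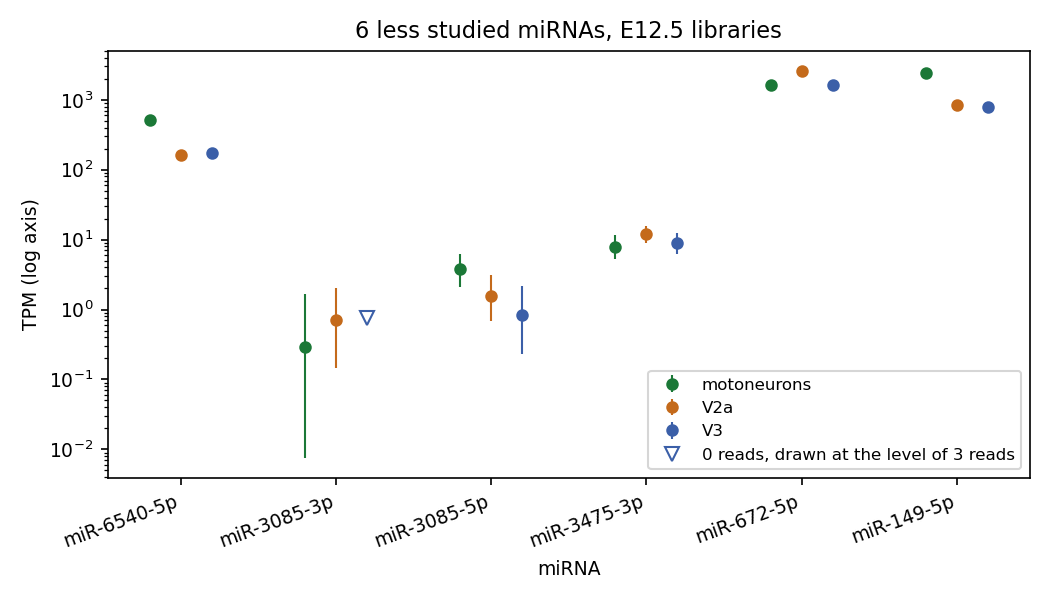
TPM on a log axis of the 6 miRNAs in the E12.5 libraries of motoneurons (green), V2a (orange) and V3 (blue), 1 library each, with exact 95% Poisson intervals and an open triangle at the level of 3 reads for the library with 0 reads. miR-6540-5p and miR-149-5p are highest in motoneurons, miR-672-5p is highest in V2a, and miR-3085-3p rests on 3 reads or fewer everywhere.

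Members that had been chosen together at E10.5 therefore did not share 1 pattern at E12.5. Of the 523 miRNAs that reached 10 TPM in at least 1 E12.5 library, 61 were at least 2-fold higher in motoneurons than in both interneuron libraries (11.7%) and 36 were at least 2-fold lower than in both (6.88%), on the log2(TPM + 1) scale. The number higher was 30 with a pseudocount of 10 and 170 with only all-zero rows removed. Of the 6 members, 4 were considered and 2 of these, miR-6540-5p and miR-149-5p, were higher than both. Their log2 ratios were 1.65 and 1.498 over V2a, ranks 34 and 43 of 523, and 1.53 and 1.62 over V3, ranks 75 and 69. None was lower than both. miR-672-5p had log2 ratios of -0.68 over V2a and 0.00 over V3, and miR-3475-3p had -0.55 and -0.13. The medians over all 523 were -0.16 over V2a and 0.25 over V3, so the ratios to V3 sit on a higher background than those to V2a. The miR-3085 arms fell below the limit of 10 TPM in all 3 libraries.

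**Figure D4:**
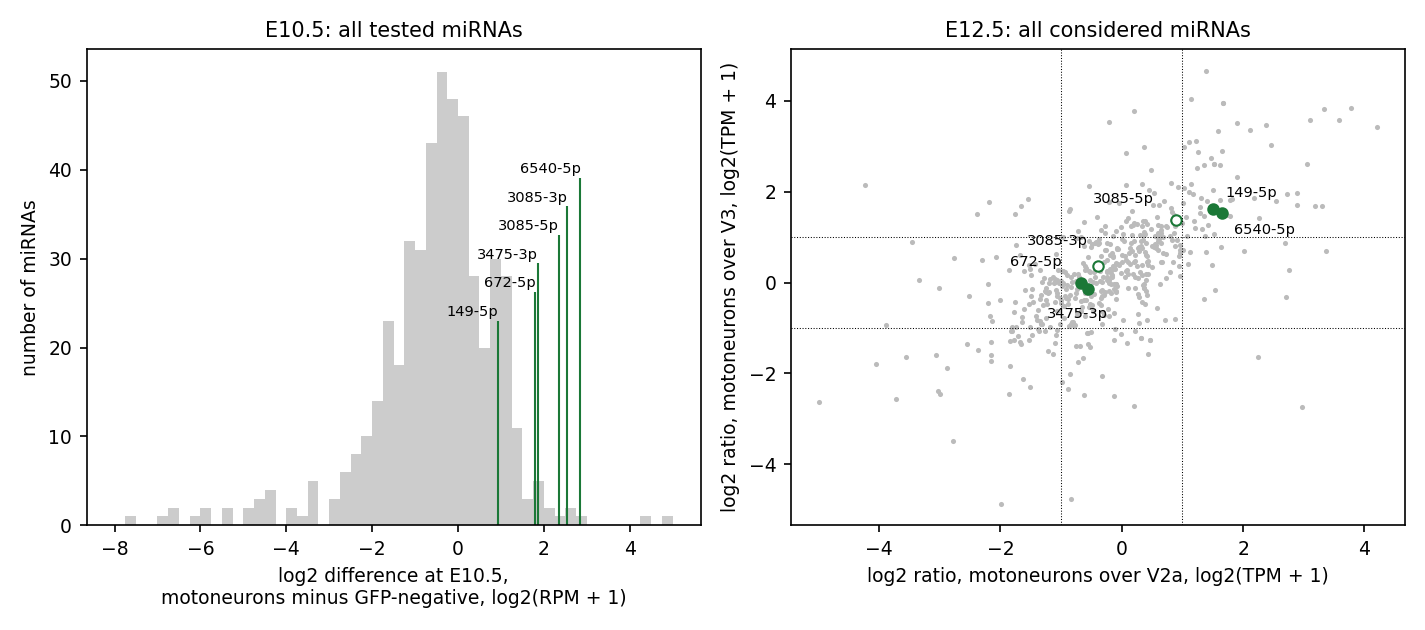
Left, number of miRNAs by log2 difference at E10.5 (motoneurons minus GFP-negative) for the 492 tested miRNAs, with green lines at the 6 members. Right, log2 ratios at E12.5 of motoneurons over V2a and over V3 for the 523 considered miRNAs in grey, with members in green, open where they did not reach 10 TPM, and dotted lines at 2-fold. The members lie from 0.94 to 2.85 at E10.5 by their choice, whereas at E12.5 miR-6540-5p and miR-149-5p lie beyond 2-fold on both axes and miR-672-5p and miR-3475-3p near the middle.

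Levels at the 2 stages are set side by side without a test, because stage and table cannot be told apart. Within motoneuron libraries, ordered by level per length, miR-672-5p ranked 53 of 1401 detected miRNAs at E12.5, against 155 of 960 and 167 of 886 at E10.5. miR-149-5p ranked 42 at E12.5, against 110 and 104 at E10.5, and miR-6540-5p ranked 82 at E12.5, against 76 and 71 at E10.5. miR-3475-3p ranked 463 at E12.5, against 134 and 131, miR-3085-3p 1266 against 142 and 197, and miR-3085-5p 611 against 459 and 407. The ordered lists differ in length (1401, 960 and 886 miRNAs), so these ranks describe a place within each library and no change between stages is read from them. Summed over the 6 members, the level was 4570 TPM for E12.5 motoneurons, 3643 TPM for V2a and 2599 TPM for V3. At E10.5 they summed to 2693 and 2694 RPM in motoneurons and 608 and 813 RPM in GFP-negative cells.

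A pair of miRNAs share a seed with a member, and both were too low at E10.5 to test. miR-3064-5p, with the seed of miR-3085-3p, had 2.49 and 8.11 RPM in E10.5 motoneurons and 2.57 and 7.43 RPM in GFP-negative cells, and 5.35, 5.12 and 9.86 TPM in E12.5 motoneurons, V2a and V3. The E10.5 groups overlapped. miR-377-5p, with the seed of miR-672-5p, had 7.47 and 0 RPM in motoneurons and 12.9 and 11.1 RPM in GFP-negative cells at E10.5, and 1.69, 4.45 and 0 TPM in motoneurons, V2a and V3 at E12.5.

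The miRNAs most like each member were found by the root-mean-square difference of log2 profiles over the 7 libraries, each miRNA centred on its mean within each table, among 295 candidates at 15.2 or more in at least 2 libraries of both tables. Nearest to miR-6540-5p were miR-346-5p (difference 0.62 log2 units, Pearson r 0.91), miR-124-3p (0.62, r 0.86) and miR-7a-2-3p (0.66, r 0.83). miR-124-3p, a neuronal miRNA, was also nearest to miR-3085-3p (0.36, r 0.94), followed by miR-7a-2-3p (0.39) and miR-669c-5p (0.46). miR-3085-5p had miR-384-3p (0.43), miR-124-3p (0.45) and miR-760-3p (0.45). miR-219b-5p was nearest to both miR-3475-3p (0.22, r 0.98) and miR-672-5p (0.19, r 0.99). The next were miR-760-3p (0.27) and miR-344-3p (0.27) for miR-3475-3p, and miR-760-3p (0.24) and miR-342-5p (0.26) for miR-672-5p. miR-149-5p was nearest to miR-770-3p (0.15, r 0.97), miR-467e-5p (0.21) and miR-22-3p (0.24). The 7 points share 2 tables and their scalings, and 4 of them are the libraries on which the members were chosen. The miR-3085 arms and miR-3475-3p were below 15.2 TPM in all 3 E12.5 libraries. miR-669c-5p, miR-219b-5p and miR-467e-5p share reads with other rows of the deposited table.

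As a wider background, limma called 57 of the 492 tested miRNAs higher (11.6%) and 151 lower (30.7%) in E10.5 motoneurons (adjusted p under 0.05). The number called higher was 29 without motoneuron replicate 1 and 27 without motoneuron replicate 2. Of 15 listed pan-neuronal miRNAs 11 were tested, and of these 5 were higher and 0 lower, with a median log2 difference of 0.49, against -0.34 over all tested. The 5 were both arms of miR-124, miR-153-3p, and miR-7a-5p with miR-7b-5p, so they are not 5 separate observations. The number higher was 1 when motoneuron replicate 1 or 2 was left out, 3 when GFP-negative replicate 1 or 2 was left out, and 2 with only all-zero rows removed. The abundant miR-9-5p had 24587 and 31007 RPM in motoneurons and 23473 and 19189 RPM in GFP-negative cells (log2 difference 0.38, limma adjusted p = 0.124). miR-7a-5p, which shares reads with miR-7b-5p, had 14719 and 14329 RPM in motoneurons, against 9198 and 11552 RPM in GFP-negative cells (0.49, adjusted p = 0.0448), and miR-128-3p had 2088 and 2575 RPM in motoneurons, against 2125 and 2506 RPM in GFP-negative cells (0.01, adjusted p = 0.979).

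The lists of other cell types that differ between the E10.5 sorts also take part in the totals behind RPM. With miR-218 and those lists left out of the totals, an alternative chosen after seeing the data, the members' log2 differences at E10.5 were 2.998 for miR-6540-5p, 2.69 for miR-3085-3p, 2.52 for miR-3085-5p, 2.01 for miR-3475-3p, 1.94 for miR-672-5p and 1.08 for miR-149-5p. The change of totals is 1 rescaling that moves all miRNAs of a library together, so the shift of the 6 members is not 6 separate observations. The part of non-neuronal or other neuronal cells in the GFP-negative levels was not tested. At E12.5 the 10 mesenchymal and smooth muscle markers summed to 199 TPM in motoneurons, against 249 TPM in V2a and 310 TPM in V3. The skeletal muscle markers summed to 125 TPM in motoneurons, against 221 TPM in V2a and 61.1 TPM in V3, and the sensory neuron markers to 108 TPM in motoneurons, against 181 TPM in V2a and 193 TPM in V3. The endothelial markers summed to 177 TPM in motoneurons, against 405 TPM in V2a and 174 TPM in V3. The blood markers were at 1.12 TPM in motoneurons, against 1.91 TPM in V2a and 0.240 TPM in V3. The sums of the skeletal muscle, endothelial and blood lists were thus all highest in V2a, the library where miR-672-5p was highest. For skeletal muscle this order was not shared by miR-1a-3p, which was highest in motoneurons. The blood sum in V2a rests on 1 detected member, with miR-451a and miR-144-3p at 0. The pan-neuronal list summed to 89375 TPM in motoneurons, against 87456 TPM in V2a and 167550 TPM in V3. Most of each sum was miR-9-5p, at 73278 TPM in motoneurons, 73931 TPM in V2a and 160334 TPM in V3. In the same order, miR-7a-5p (1183, 1550 and 653 TPM) and miR-128-3p (13085, 11007 and 5328 TPM) were lowest in V3. The part of these differences in the members' E12.5 levels was not tested.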

How the data were processed

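The E10.5 table as deposited by the authors holds RPM, and each library sums to 1000000. The header of the E12.5 table gives no unit. The deposited values were treated as FPKM, because library sums were 44274706 to 44823517 and low values fall on steps that follow miRNA length. Each E12.5 library was rescaled to 1000000 (TPM). Per the submitters' processing notes, Bowtie2 was used. The sources used here do not name a counter, genome build or annotation. The file groups its 1908 rows into bundles, and each member is alone in its bundle.

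Depth came from the value of 1 read. At E10.5, the share of low values within 0.05 of a whole read was 97.6% to 100%, and at E12.5, using RefSeq lengths, 76.2% to 82.5%. miR-6540-5p was taken as 22 nt. RPM is no count, so no count test was used. limma 3.58.1 (R 4.3.3, mean-variance trend, two-sided, Benjamini-Hochberg over all 492 miRNAs) was fitted to log2(RPM + 1), which understates changes of low miRNAs. SEs come from that fit. E12.5 has no replicates and no test. p-values measure the spread between libraries, which may be technical. Members and lists were chosen with earlier results of these data known. The named miRNAs are the members, their opposite arms, miRNAs sharing a member's seed, the 3 nearest profiles of each member, the 3 most abundant pan-neuronal miRNAs and miR-218-5p. Alternatives were scaling, pseudocount, filter, a replicate block and leaving out each library.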

Additional observations from a re-analysis of the deposited data

How the results depend on the processing

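The sign of the members' E10.5 difference is fixed by their choice when a library is left out, so its constancy is no sign of stability. The members' ratios over V2a at E12.5 kept their sign in the 4 alternatives run, which says little about stability. A pseudocount cannot alter the sign of a ratio, and rescaling whole libraries can alter it only for levels close to equal. For miR-3085-3p the sign rests on 1 read in motoneurons and 3 in V2a, so no order is read from it. Scaling by the median of ratios put the median of all tested miRNAs at -0.06 on the log2 scale, against -0.34 with RPM, and moved the members with it. miR-149-5p, for example, ran from 0.67 (without GFP-negative replicate 1) to 1.21 (median of ratios). The replicate block (the number shared by libraries of both groups) gave 67 miRNAs called higher and 162 lower, and in this balanced layout it cannot alter a difference between group means. Same-numbered libraries deviated together with a correlation of 0.26, but nothing in the labels says that a number marks a shared sort. The number called higher was 57 with all libraries, 34 with only all-zero rows removed and 27 to 48 with 1 library left out. The split of 57 higher and 151 lower became 85 and 117 with the median of ratios. At E12.5, the number at least 2-fold higher in motoneurons than in both interneurons was 61, and became 30 with a pseudocount of 10 and 170 with only all-zero rows removed. miR-6540-5p ran from 1.60 to 1.90 over V2a and 1.29 to 1.68 over V3, and miR-149-5p from 1.49 to 1.75 and 1.38 to 1.77. miR-149-3p passed the test with the median of ratios (log2 difference 1.54) and in no other alternative with all libraries. It had passed the abundance filter only through the motoneuron libraries, so this pass is not independent of the direction of its difference. At E12.5, the ratio of miR-672-5p over V3 ran from -0.24 to 0.15 and that of miR-3475-3p from -0.35 to 0.00. Of the 18 nearest profiles, 6 were also among the 3 nearest by Pearson correlation, so those names depend on the measure. Depth limits the miR-3085 arms and miR-3475-3p at E12.5.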
